A study of Mus musculus with 14 samples.

Results

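RNA in the single-ribosome (monosome) fraction was compared with RNA in the fraction of 2 to 3 ribosomes. This was done at the level of individual 3' ends, in 3T3 cells, a mouse fibroblast line. The members are the poly(A) sites, hereafter 3' ends, with at least 60 read counts summed over the monosome fraction and the lightest polysome fraction of 1 sucrose gradient. This minimum kept 11525 of 33590 3' ends. Both libraries came from untreated 3T3 cells as far as the labels say, with no allele, transgene or agent named, and the gradient was run once with 1 library per fraction. The comparison therefore has no replicate check, and no p-value is given.

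In a sucrose gradient, an mRNA sediments further the more ribosomes it carries. An mRNA with 1 ribosome travels as a monosome (an 80S particle), and an mRNA with several travels as a polysome. Short reading frames and slow initiation are known to keep an mRNA among the monosomes, and alternative 3' ends of a gene can differ in how much 3' untranslated sequence they carry.

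The series holds 14 samples, of which the 6 gradient fractions, 2 steady-state control libraries and 4 libraries of cells under 10 µg/ml of actinomycin D, an inhibitor of transcription, were used here. The library named for 1 ribosome held 4173629 counts and the library named for 2.5 ribosomes, called the 2 to 3 ribosome fraction here, held 6668635. The members held 97.9% and 97.5% of these counts. Each count was divided by the factor the authors give for its library, 0.736 for the monosome fraction and 0.532 for the 2 to 3 ribosome fraction, after adding 0.5. The file pairs no 3' end with a gene, and no annotation or genome of its build, mm9, was used here. Ends are therefore named by mm9 position and strand. Whether they belong to messenger RNAs or lie in an exon or an untranslated region, and whether fibroblast markers are present, was not analysed here. Monosome, free of ribosomes and numbers of ribosomes name fractions by sedimentation here, and ribosome binding was not measured.

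Most 3' ends had more RNA in the 2 to 3 ribosome fraction. The median ratio of the 2 to 3 ribosome fraction over the monosome fraction was 2.75-fold (log2 1.46), and the middle 50% of the ends lay between 1.89-fold and 3.94-fold. At 2-fold or more, 8275 ends, or 71.8% of the members, were on the 2 to 3 ribosome side, and 35 ends, or 0.304%, were on the monosome side. The other 3215 lay between. Counting error limits these classes: the exact 95% interval of the ratio lay wholly beyond 2-fold for 6015 ends on the heavier side and 19 on the monosome side. More scaled RNA in the monosome fraction, by any amount, was found for 403 ends (3.50%), and 193 of them kept this with their whole interval.

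How many ends fall on each side rests on the scaling, and the order of the ends does not, since a scaling shifts every log2 ratio by the same amount. The authors' factors make the scaled total of the 2 to 3 ribosome fraction 2.21-fold that of the monosome fraction. With library totals in place of the authors' factors, the median log2 ratio was 0.31, with 566 ends on the monosome side and 2121 on the other. With TMM factors it was 0.07 (1014 and 1291 ends), and with median-of-ratios factors 0.02 (1126 and 1156 ends). TMM and median-of-ratios factors set the typical end near equality, so a near-even split is built into them. The monosome side made up 0.421% of the ends called with the authors' factors and 49.3% with median-of-ratios factors. Relative to the median ratio, 1190 ends lay 2-fold or more below it and 1106 as far above.

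The spread between libraries of the same kind was measured in the controls, for which nothing says that they came from separate cultures. Of 13418 ends with at least 60 control counts, 894 (6.66%) differed 2-fold or more in either direction. The log2 ratio between controls had an SD of 0.51 around a median of 0.09, against an SD of 0.80 between the fractions. Relative to each median, 2296 member ends and 795 control ends (5.93%) lay 2-fold or more away. At the count minimum the ratio changed little: the 352 ends with 60 to 64 counts had a median log2 ratio of 1.39, and the 401 ends with 55 to 59 counts, just outside, had 1.49.

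**Figure D1:**
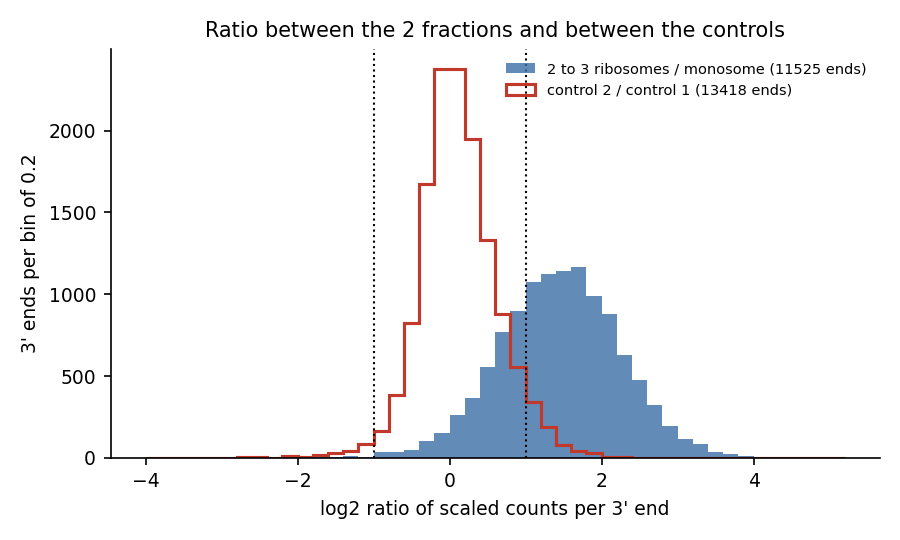
Histogram of the log2 ratio per 3' end in bins of 0.2, for the 2 to 3 ribosome fraction over the monosome fraction (blue, 11525 ends) and for control 2 over control 1 (red line, 13418 ends), with dotted lines at 2-fold. The fraction ratios centre on 1.46 with an SD of 0.80, the control ratios on 0.09 with an SD of 0.51.

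The ends with the lowest ratios were concentrated in the ribosome-free and monosome fractions, with little RNA on heavier polysomes. The lowest ratio of all belonged to the end at 36538656 on the minus strand of chromosome 15, with 5109 counts in the monosome fraction and 556 in the 2 to 3 ribosome fraction. It was 6.64-fold higher in the monosome fraction (95% interval 6.08 to 7.26). Of its scaled gradient counts, 76.6% were in the ribosome-free fraction, 13.5% in the monosome fraction, 2.03% in the 2 to 3 ribosome fraction and 1.63%, 2.16% and 4.10% in the 3 heavier fractions. This end was thus mainly in the ribosome-free fraction, and its place on the monosome side concerns a minor share of its RNA.

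Other low ends peaked in the monosome fraction itself. At 94421556 on the minus strand of chromosome 3, 101 counts stood against 14, a 5.06-fold excess of monosome RNA (2.97 to 9.88), with 51.4% of the end's RNA in that fraction. At 10028400 on the plus strand of chromosome 1, 427 counts stood against 92 (3.34-fold, 2.67 to 4.25), with 62.4% in the monosome fraction. The latter had 9.97% free of ribosomes and 2.78% in the heaviest fraction, so it was a monosome end in the narrow sense.

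The end at 69873926 on the plus strand of chromosome 9 had 840 counts against 184 (3.29-fold, 2.81 to 3.89). Its RNA was spread over the ribosome-free (37.1%) and monosome (42.1%) fractions. The end at 29315938 on the minus strand of chromosome 12 had 1677 counts against 434 (2.79-fold, 2.51 to 3.11) and a second member end of its locus with a log2 ratio of -0.83. Both ends of that locus therefore had more RNA in the monosome fraction.

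Monosome-side ends were mostly of low abundance, with a median of 9.92 CPM (counts scaled to a common library total) in the controls against 29.3 CPM over all members. Of the 35, 19 were in the lowest quartile of control CPM. The count minimum favours this, as it covers the 2 compared fractions alone. These held a median 57.95% of the gradient RNA of monosome-side ends, against 27.97% over all members. Some monosome-side ends were abundant. The end at 8962878 on the minus strand of chromosome 19 had 13715 counts against 3930 (2.52-fold, 2.43 to 2.61) at 473 and 657 CPM in the controls. The end at 116085202 on the plus strand of chromosome 7 had 24669 against 7153 (2.49-fold, 2.43 to 2.56) at 834 and 661 CPM. The most deeply counted of the 35, at 162968667 on the plus strand of chromosome 1, had 43274 against 15023 (2.08-fold, with the bound nearest equality at 2.04-fold).

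The 35 monosome-side ends lay in 31 loci on 14 chromosomes, where a locus is a chain of ends on 1 strand with each within 2000 nt of the next. Their largest share of gradient RNA was in the monosome fraction for 25 and in the ribosome-free fraction for 10. By definition these ends cannot peak in the 2 to 3 ribosome fraction, and a monosome peak is favoured. Ends on the 2 to 3 ribosome side likewise cannot peak in the monosome fraction. Among all members, 206 ends (1.79%) peaked in the monosome fraction, 3045 (26.4%) in the 2 to 3 ribosome fraction and 4612 (40.0%) in the heaviest fraction. The heaviest fraction was the commonest peak of ends between (48.6%) and of ends on the 2 to 3 ribosome side (36.9%), and of 0 ends on the monosome side.

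The ends with the highest ratios had little RNA in the monosome fraction, from 0.76% to 4.36% against a median of 7.18% over all members. A low monosome share is favoured by choosing ends for a high ratio over that fraction. These ends peaked at a moderate ribosome number. At 37186156 on the minus strand of chromosome 5, 128 monosome counts stood against 1559, a 16.8-fold excess in the 2 to 3 ribosome fraction (14.1 to 20.3). Its shares over the 6 fractions, from ribosome-free to heaviest, were 1.96%, 1.78%, 29.9%, 40.0%, 14.6% and 11.8%. The fraction named for 4.5 ribosomes held the most.

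The end at 74998207 on the plus strand of chromosome 10 was the deepest of this group, with 631 counts against 6737 (14.8-fold, 13.6 to 16.1). It stood at 872 and 1015 CPM in the controls. The largest ratio came from few counts: 3 against 85 at 71863129 on the plus strand of chromosome 4, a ratio of 33.8 with an interval from 13 to 194. That interval overlaps those of the ends before it, so the order among them is not resolved.

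The other high ends were at 84774442 on the minus strand of chromosome 15 (10 against 173 counts, 22.9-fold, 12.7 to 50.8), at 115883583 on the minus strand of chromosome 11 (159 against 1614, 14-fold, 11.9 to 16.6) and at 29225441 on the plus strand of chromosome 6 (94 against 946, 13.9-fold, 11.3 to 17.4). The end at 10628169 on the plus strand of chromosome 18 had 13 against 168 counts (17.3-fold, 10.2 to 34.3), and 5 other member ends of its locus had log2 ratios from 2.99 to 3.56. The end at 133057746 on the plus strand of chromosome 6 (387 against 3105, 11.1-fold) was the only one of the 8 with its largest share, 48.4%, in the 2 to 3 ribosome fraction. The other 7 peaked in the fraction named for 4.5 ribosomes.

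**Figure D2:**
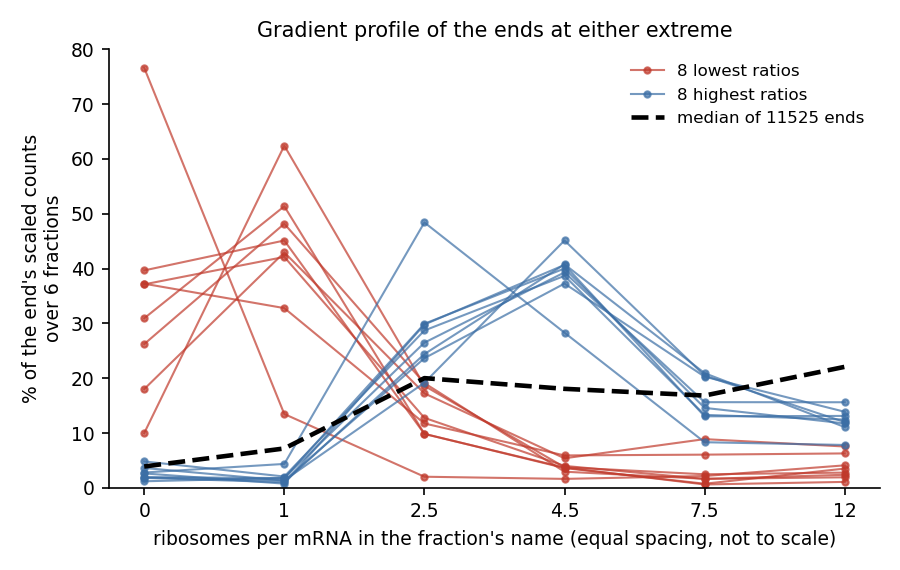
Percent of each end's scaled counts in the 6 gradient fractions (equally spaced) for the 8 lowest (red) and 8 highest (blue) ratios, with the median of 11525 ends dashed. The red line that starts at 76.6% is the chromosome 15 end, and the blue line that reaches 48.4% at 2.5 ribosomes is the chromosome 6 end.

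The most counted ends did not share a direction. The end at 163645025 on the minus strand of chromosome X had 238982 counts in the monosome fraction and 214138 in the 2 to 3 ribosome fraction (1.24-fold more in the latter after scaling, 1.23 to 1.25), and the 2 fractions together held 80.6% of its gradient RNA. On the plus strand of chromosome 3, the ends at 90409962 (64056 against 181277) and 90418335 (43167 against 171308) were 3.92-fold (3.88 to 3.95) and 5.49-fold (5.43 to 5.55) higher in the 2 to 3 ribosome fraction. These 3 ends lay above equality.

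Those at 48619586 on the plus strand of chromosome 11 (100766 against 55787) and 13512033 on the plus strand of chromosome 7 (101453 against 47914) were 1.31-fold (1.29 to 1.32) and 1.53-fold (1.51 to 1.55) higher in the monosome fraction. The end at 76736741 on the plus strand of chromosome 15 had 62952 against 46701 counts, a scaled ratio of 1.03 (1.01 to 1.04). Of the 100 most abundant ends by control CPM, 14 had more RNA in the monosome fraction, against 5.60% of the 1000 most abundant and 3.50% of all members. By quartile of control CPM, from lowest to highest, the share was 4.96%, 2.60%, 2.43% and 3.99%, so it was largest in the least abundant quartile. In that quartile the count minimum favours ends rich in the compared fractions. Those 100 ends held 35.3% of all monosome counts and 27.9% of the counts in the other fraction.

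The remaining gradient fractions, which the ratio does not use, differed between the classes. Of the RNA outside the compared fractions, the median share free of ribosomes was 67.3% for monosome-side ends, 7.44% for ends between and 5.14% for ends on the 2 to 3 ribosome side. The heaviest fraction held a median 8.15%, 38.1% and 28.7% of that RNA. Ends between thus had a larger median share in the heaviest fraction than ends on the 2 to 3 ribosome side, and the authors' deposited table gives nearly equal medians of 6.16 and 6.08 ribosomes per mRNA for them, against 1.77 for the monosome side. That quantity is a weighted mean over the same 6 fractions.

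Monosome-side ends had high half-life values in the actinomycin D series, a separate experiment in the same line. The authors' deposited table gives a median half-life of 10.7 h for the 22 monosome-side ends with a value, 3.51 h for 3177 ends between and 2.86 h for 8238 on the 2 to 3 ribosome side. The scale is compressed at its upper end. The rate behind the half-life was that of an exponential fit on the scaled counts plus 0.1 per h. This held within 0.001 per h for 1000 of 1000 members compared. An end whose fitted scaled count stayed level thus has 6.93 h, higher values mean that it rose, and values stop at 50 h. The table lists 88 members without a half-life, which the file headers give as a sign of too little coverage. Of these, 63 had at least 60 control counts, and for 88 of them the fitted rate plus 0.1 per h was at or below 0, that is, their scaled counts rose. A half-life above 6.93 h, or none (13 of the monosome-side ends), was found for 29 of 35 monosome-side ends (82.9%), 669 ends between (20.8%) and 1099 on the 2 to 3 ribosome side (13.3%). By that fit, these ends rose in scaled count, so their values are not measured times of decay.

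Across all members, the ratio was lower where the half-life was longer. By quartile of half-life, from shortest to longest, the median ratio was 3.06-fold, 2.83-fold, 2.65-fold and 2.48-fold, and the share on the 2 to 3 ribosome side was 77.7%, 74.9%, 70.2% and 65.3%. By quartile of control CPM it was 2.79-fold, 2.80-fold, 2.72-fold and 2.68-fold. The quartiles overlap widely: the middle 50% of log2 ratios ran from 1.07 to 2.09 in the shortest-lived and from 0.75 to 1.88 in the longest-lived quartile.

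**Figure D3:**
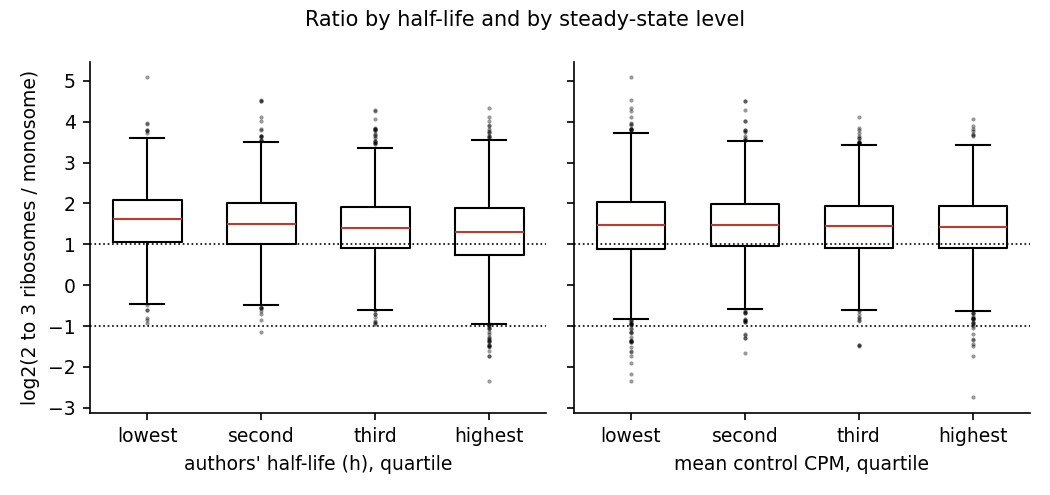
Box plots of the log2 ratio by quartile of the authors' half-life (left) and of mean control CPM (right), with the median in red, boxes at the quartiles, whiskers to 1.5 times the box and points beyond. The median falls from 1.61 to 1.31 over the half-life quartiles and from 1.48 to 1.42 over the CPM quartiles.

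Ends of a locus mostly agreed. Of 8380 loci with a member, 2184 had at least 2 member ends. In 1789 of these (81.9%, exact 95% interval 80.2 to 83.5%) all member ends fell in the same class. That interval takes loci as independent, though they share both libraries. The 2 to 3 ribosome side held 71.8% of all ends, and 1355 of the 1789 loci had all their ends there. Some loci would thus have all ends in 1 class even if their ends were unrelated. The 71.8% counts single ends and is not the share of loci that unrelated ends would give, which was not calculated. Only 6 loci with 2 or more member ends held a monosome-side end, and 0 of them also had an end on the other side. With library totals this was 1 of 166 such loci, with TMM factors 0 of 296 and with median-of-ratios factors 1 of 332, and with ends linked within 5000 nt it was 2 of 8. The pooled SD of the log2 ratio within loci was 0.34, against 0.81 over the same 5329 ends.

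On chromosome 2, plus strand, 4 member ends were all on the monosome side, the sole locus of its kind. They had 108 against 17 counts at 119425854, 105 against 24 at 119426373, 65 against 22 at 119426398 and 288 against 80 at 119426477, with log2 ratios of -2.16, -1.64, -1.07 and -1.37. The intervals of the lowest and the highest of these overlap. Of the 35 monosome-side ends, 25 were the only member of their locus, and for 8 of the other 10 every other member end also had more RNA in the monosome fraction.

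The locus with the most member ends, 11 on the plus strand of chromosome 13, spanned 3318 nt. Its log2 ratios ran from 0.10 at 90244305 (877 against 681 counts) to 1.32 at 90246595 (37 against 67). The 8 ends up to 90245058 lay below 2-fold, and the 3 ends beyond it, at 90246595, 90246933 and 90247484, were at 2.49-fold, 2.30-fold and 2.04-fold. Intervals of those 3 ends reach below 2-fold. The 9 member ends of a locus on the plus strand of chromosome 6, over 854 nt, were between 2.18-fold and 3.65-fold, all on the 2 to 3 ribosome side.

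Pairs were formed from the most counted member ends of each locus, 2 per locus, the end nearer the 5' side being proximal. Over 2184 pairs the log2 ratios of proximal and distal end were correlated (Pearson's r 0.85, Spearman's rho 0.84), a description over pairs that share both libraries. The class was the same for 85.2%, and 82.6% lay on the same side of the median ratio. Pearson's r was 0.92 for ends under 100 nt apart, 0.85 at 100 to under 500 nt and 0.79 at 500 nt or more. Among the 617 pairs with 300 counts per end it was 0.93.

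**Figure D4:**
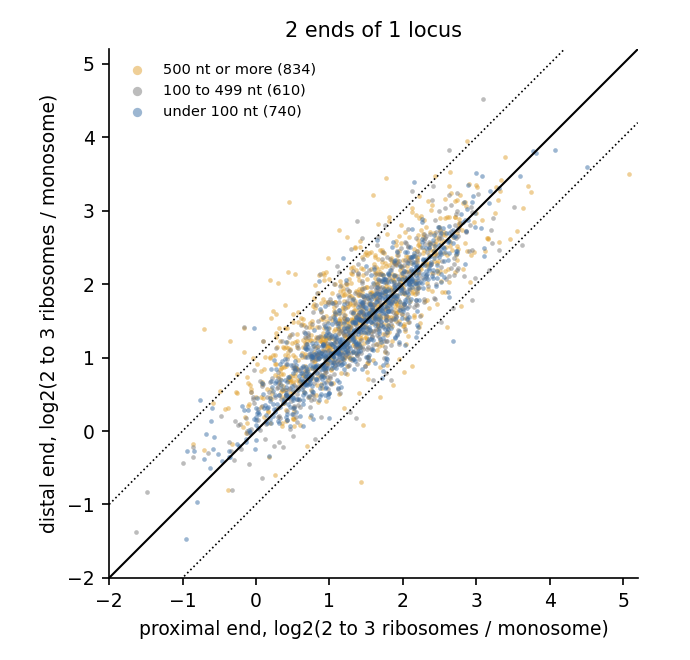
Log2 ratio of the distal against the proximal end for 2184 pairs, coloured by distance, with the line of equality and dotted lines at a 2-fold difference. Pairs follow the diagonal (r 0.85), and 64 lie above the upper dotted line against 17 below the lower.

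The distal end was slightly heavier than the proximal end. Its log2 ratio exceeded the proximal one by a median of 0.08 (95% interval 0.06 to 0.10, which takes pairs as independent), and in 59.5% of pairs it was the larger. At 2-fold or more, the distal end was heavier in 64 pairs (2.93%) and lighter in 17 (0.778%). The interval of the difference lay wholly beyond 2-fold in 6 and 1 of them, and it excluded 0 in 388 pairs (17.8%). For 1298 pairs (59.4%) it lay wholly within 2-fold.

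Over all shared pairs, the size of these differences was close to that between the control libraries. Of 2797 control pairs, 189 (6.76%) differed 2-fold or more between the controls in either direction. On the 1773 pairs that met the minimum in both, 2.82% differed 2-fold in the gradient and 4.06% in the controls, and the median size was 0.24 in both. Under 100 nt apart the median size was 0.17 in the gradient and 0.14 in the controls, and at 100 to under 500 nt 0.27 and 0.31. The distal shift was also present between controls, with a median of 0.08 in the gradient and 0.04 for control 2 over control 1, an order that is arbitrary.

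With distance between the ends, the median distal shift rose from 0.01 under 100 nt to 0.08 at 100 to under 500 nt and 0.19 at 500 nt or more. On the shared pairs at 500 nt or more it was 0.18 (0.14 to 0.22) in the gradient and 0.13 (0.08 to 0.18) between the controls. At 100 to under 500 nt it was 0.08 (0.02 to 0.12) and 0.01 (-0.04 to 0.09). The intervals overlap in both classes of distance, and the difference between gradient and controls was not tested.

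**Figure D5:**
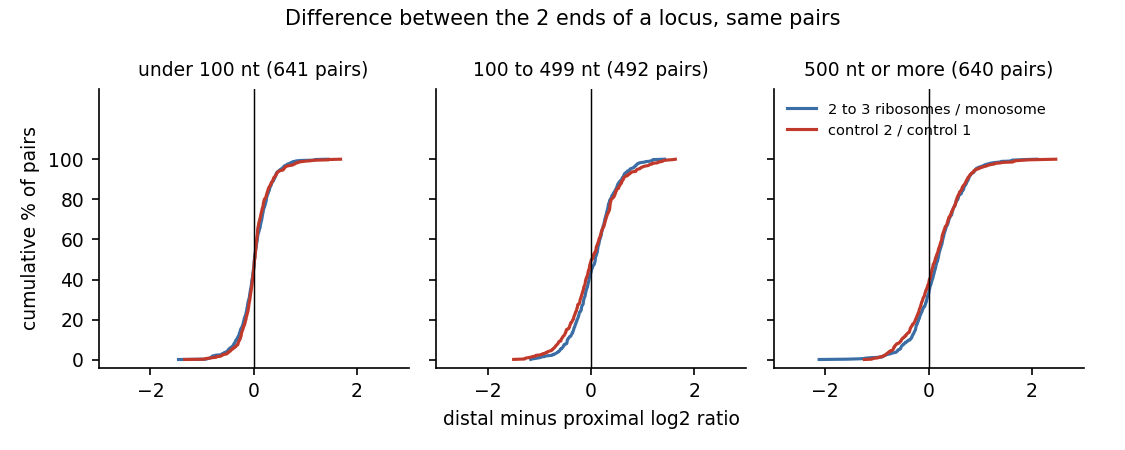
Cumulative percent of pairs by the distal minus proximal log2 ratio, for the fractions (blue) and for control 2 over control 1 (red) on the same pairs, in 3 classes of distance. At 500 nt or more the medians are 0.18 and 0.13, and the curves nearly coincide.

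Single loci differed more. On the minus strand of chromosome 8, the end at 114517343 had 733 monosome and 725 heavier counts (1.37-fold), and the end 1662 nt further, at 114515681, had 28 and 178 (8.67-fold). The distal end was 6.33-fold heavier (4.23 to 10.1). It was a minor end, with 1.15% and 0.944% of the pair's counts in the controls, 3.68% in the monosome fraction and 19.7% in the 2 to 3 ribosome fraction. Its share was 8.59%, 2.90% and 0.674% in the heavier fractions, so it was highest at 2 to 3 ribosomes, stayed above both controls in the next 2 fractions and was below them in the heaviest.

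On the plus strand of chromosome 5, the proximal end at 121890150 had more RNA in the monosome fraction (66 against 29 counts) and the distal end at 121892416 less (84 against 160), a 4.28-fold difference (2.53 to 7.5). On the plus strand of chromosome 10 the difference was 3.66-fold (2.5 to 5.41) between 70846900 and 70848630. On its minus strand it was 3.3-fold (2.3 to 4.74) between 128359913 and 128356969. The distal share of this minus-strand pair was 91.44% in the monosome fraction and 97.24% in the 2 to 3 ribosome fraction. It was 96.62% and 99.15% in the controls, which thus also differed from each other at this pair. Another pair on chromosome 10, 80364108 and 80362656 on the minus strand, rested on the most counts (195 and 278, 933 and 3463). It differed 2.60-fold (2.13 to 3.18). Its distal share, from ribosome-free to heaviest, was 64.8%, 82.7%, 92.6%, 93.4%, 72.4% and 30.2%, against 38.0% and 45.3% in the controls. The distal end was thus heavier between the compared fractions, but not over the whole gradient. On chromosome 16, the ends at 27446877 and 27452301 on the plus strand differed 3.32-fold (2.07 to 5.34).

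In the opposite direction, the distal end at 114544343 on the plus strand of chromosome 8 had 81 monosome and 36 heavier counts, and its proximal partner at 114543098 had 44 and 86, a 4.34-fold difference (2.49 to 7.79). The distal share of this pair was 32.8% and 31.9% in the controls and went from 77.1% in the ribosome-free fraction to 64.8%, 29.5%, 13.7%, 8.24% and 5.83% with more ribosomes. It was thus the lighter end over the whole gradient. On chromosome 19, the distal end at 6053894 on the minus strand was 2.35-fold lighter than that at 6054675 (1.84 to 3.01). Its share of the pair was 49.66% in the monosome fraction and 29.55% in the 2 to 3 ribosome fraction. It was 44.96% and 60.5% in the controls, which thus also differed from each other at this pair. On chromosome 2, the distal end at 156818995 on the minus strand was 2.59-fold lighter than that at 156821013 (1.65 to 4.12).

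The other 3 loci with a lighter distal end had wider or smaller differences. They were 2.35-fold for 38559420 against 38553875 (chromosome 6, plus strand), 2.37-fold for 96517824 against 96519980 (chromosome 15, minus strand) and 1.86-fold for 36853178 against 36854626 (chromosome 10, minus strand). Intervals of these 3 reached from 1.41-fold to 4.02-fold. The distal share also differed between the controls. It was 27.56% and 40.7% for the chromosome 6 pair, 85.56% and 89.51% for chromosome 15, and 14.41% and 21.69% for chromosome 10.

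The deepest agreeing loci with 2 member ends were chosen among those with both ends in the same class. Their agreement is therefore no evidence for other loci. At 115755546 and 115755523 on the minus strand of chromosome 6, 23 nt apart, the ratios were 1.20-fold and 1.20-fold (14512 and 12577 counts, 20073 and 17362). At 166891338 and 166891360 on the plus strand of chromosome 2 the log2 ratios were -0.35 and -0.35. At 21719682 and 21719705 on the plus strand of chromosome 10 the ratios were 2.5-fold and 2.38-fold, and at 93368538 and 93368564 on the plus strand of chromosome 3 they were 5.10-fold and 5.61-fold. These ends lie within 26 nt of each other, on either side of the median ratio of 2.75-fold.

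Position within the locus went with a modest difference over all members. Positions were set over all 33590 ends, so a member can be proximal or distal to ends under the count minimum. The median ratio was 2.58-fold for 2314 proximal ends, 2.82-fold for 2758 middle ends, 2.84-fold for 3340 distal ends and 2.71-fold for 3113 single ends. The share on the 2 to 3 ribosome side was 65.8%, 73.2%, 76.0% and 70.5%. The chromosome medians of the log2 ratio ran from 1.30 on chromosome 7 to 1.55 on chromosome 3, a range well inside the SD over ends of 0.80.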

How the data were processed

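Raw read counts per poly(A) site were deposited by the authors in 1 table, with sites annotated from 3P-Seq in 3T3 and embryonic stem cells, per the file headers. The libraries used were made by 2P-Seq, which primes on the poly(A) tail and sequences from it, per the labels' protocols. Bowtie and mm9 are named in the submitters' processing notes, with no Bowtie version given in the sources used here. The fraction columns, named 0, 1, 2.5, 4.5, 7.5 and 12, were assumed to be fractions 1 to 6 from light to heavy. Per-sample columns left unused numbered 0, and 2 3P-Seq samples were not analysed here.

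Counts plus 0.5 were divided by the authors' factors, per the file headers. Ends needed 60 counts over both libraries, and 2-fold was the class limit. Ratios carry exact 95% intervals and pair differences exact conditional 95% intervals. Both kinds of interval hold counting error alone, as PCR reads carry no molecular identifiers and are not independent molecules. Library totals of 4173629 and 6668635 counts gave a median interval of 0.42 on the log2 scale to either side. Calculations used Python 3.11.15, numpy 2.4.6, pandas 2.3.3 and scipy 1.17.1, and alternative scalings used edgeR 4.0.16 and DESeq2 1.42.0 in R 4.3.3, with no count test. Intervals and calls were tested on simulated data.

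Named ends were the 8 lowest and 8 highest by the interval bound nearest the median ratio, at most 1 per locus, and the 6 with most counts. Named loci were the 6 pairs each way by the bound nearest 0, the 4 deepest agreeing loci with 2 ends and the 2 with most member ends. The end on chromosome 1 at 162968667 and the chromosome 2 locus with 4 monosome-side ends were chosen after their values were seen, as were the summaries by peak fraction, chromosome and abundance, the classes around the median and the count of loci with ends on both sides under other scalings. The members and lists were chosen with earlier results of these data known. Lists of genes and markers could not be used without gene names. The alternatives tried were other scalings, minimums, folds, linkage distances, the authors' filter, summed neighbouring sites and other added counts.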

Additional observations from a re-analysis of the deposited data

Results flagged for a closer look

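The end at 36538656 on the minus strand of chromosome 15, the lowest ratio of all, also stood apart in the actinomycin D libraries, which the comparison of fractions does not use. Its scaled count at 8 h was 5.91-fold that of the higher control, above the 2-fold limit set for the 16 ends at either extreme. The scaled counts were 4017 and 1778 in the controls, and 1307, 4997, 13923 and 23759 at 1, 2, 4 and 8 h. The controls differed from each other by more than 2-fold, and each time has 1 library. The limit was set with results in view, and no cause was tested.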

How the results depend on the processing

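The counts of ends, 35 on the monosome side and 8275 on the other, moved with scaling to 566 and 2121 (library totals), 1014 and 1291 (TMM), and 1126 and 1156 (median of ratios). Relative to the median ratio, an alternative chosen after seeing the data, they were 1190 and 1106. A minimum of 1 count gave 1275 and 18678, one of 300 gave 17 and 3386, and the monosome side had 56 ends at 30 and 22 at 120. The ends entering also changed, from 28099 at a minimum of 1 to 4781 at 300. As shares, the monosome side made up 4.54%, 0.383%, 0.257% and 0.356% at 1, 30, 120 and 300 counts, against 0.304%. The other side made up 66.47%, 71.36%, 71.95% and 70.82%, against 71.8%. At 1.5-fold the monosome side had 108 ends, at 4-fold the sides had 3 and 2781, and 19 monosome-side intervals lay wholly beyond 2-fold. The authors' filter and summing of sites within 50 nt moved neither count by over 1.5 times.

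For pairs, 64 distal heavier and 17 distal lighter of 2184 became 27 and 11 of 1677 with linkage at 500 nt. At 5000 nt they were 112 and 38 of 2373, and at 1000 nt 40 of 1921 were heavier. The counts became 136 and 69 of 3122 at a minimum of 30 per end. A minimum of 120 gave 25 and 5 of 1397, and one of 300 gave 3 and 1 of 617. The heavier share was thus 4.36%, 1.79% and 0.486% at minimums of 30, 120 and 300, against 2.93%. The lighter share was 2.21%, 0.358% and 0.162%, against 0.778%. A 1.5-fold limit gave 267 and 104, a 4-fold limit 2 and 1, and intervals wholly beyond 2-fold 6 and 1. The median distal shift of 0.080 was 0.035 with linkage at 500 nt, 0.059 at 1000 nt and 0.105 between outermost ends. It was positive in all settings tried. The share of loci whose ends agree, 81.9%, was 85.7%, 84.5% and 78.5% with linkage at 500, 1000 and 5000 nt and 89.0% at 300 counts per end, alternatives chosen after seeing the data. The other scalings left it within its interval. The cause of these moves was not tested beyond the change in ends or pairs entering. Of 78 values of named ends and pairs with 0 or 5 counts added, 78 lay within their interval.

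No paired analysis was possible because each fraction has 1 library from a gradient run once and the labels give the fractions no replicate numbers, and leaving out a library leaves no comparison. Depth limits the lowest ratios as it does others: the median monosome-side end had 200 counts over both libraries, against 231 over all members.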

Other observations

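Some ends had nearly all of their gradient RNA in the monosome and 2 to 3 ribosome fractions, whichever held more. At least 75% was there for 112 ends in 100 loci (0.972% of the members), against a median of 28.0% over all members. Of these ends, 7 were on the monosome side, 81 between and 24 on the 2 to 3 ribosome side, with a median ratio of 1.32-fold. They had a median of 7.98 CPM in the controls and a median half-life of 6.43 h in the authors' deposited table. The count minimum covers these 2 fractions alone, so ends rich in them pass it at a lower control level.

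The highest share, 89.0%, belonged to the end at 72663970 on the plus strand of chromosome 8 (49 and 12 counts), with 2.01% free of ribosomes. The end at 24856467 on the minus strand of chromosome 17 had 88.0% (110 and 45 counts), and the end at 81301644 on the plus strand of chromosome 15 had 87.6% (169 and 91 counts). The deepest of the 6 highest, at 21873145 on the plus strand of chromosome 14, had 85.0% (731 and 191 counts). These ends were chosen after their values were seen.

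At 8 h of actinomycin D, 30 of the 35 monosome-side ends (85.7%) had a higher scaled count than the mean of the controls, against 696 ends between (21.7%) and 1219 on the 2 to 3 ribosome side (14.7%). The median level at 8 h was 188%, 46.6% and 33.1% of the control mean. This is the same time course behind the half-lives, so it is not separate evidence.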
